A study of Mus musculus with 35 samples.

Results

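Ttpa encodes the alpha-tocopherol transfer protein, and it was described here in mouse lung together with 4 other genes of vitamin E handling: Ttpal, Sec14l2, Scarb1 and Pltp. These 5 genes were taken by symbol from the 19938 genes that a deposited table of Affymetrix arrays measured, each read through 1 probe set, the one that was brightest on average among those carrying 1 gene symbol, and all 5 were found. Ttpa had been chosen by the laboratory on its signal on these arrays, in a comparison not known here, and the other 4 were selected on function with their values already known. Ttpa is therefore given as values with their error and with no test, while the other 4 genes were tested.

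Alpha-tocopherol, the main form of vitamin E in tissue, is a fat-soluble antioxidant that stops chains of lipid peroxidation in membranes. It travels in lipoproteins, enters cells through lipoprotein receptors and lipases, is carried inside cells by proteins with a CRAL-TRIO lipid-binding pocket, leaves through lipid exporters and is broken down by cytochrome P450 side-chain hydroxylation. Ttpa is best known in liver, where it returns alpha-tocopherol to secreted lipoproteins, and its inherited loss causes a neurological vitamin E deficiency. In lung, alveolar type 2 cells take up vitamin E from high-density lipoprotein and release it with surfactant.

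RNA was measured on 1 array per animal in 35 adult male C57BL/6J mice, an inbred strain with no transgene named, weighing 20 to 25 g, whose lungs were lavaged and then frozen. The non-ventilated group (5 arrays) breathed room air spontaneously. Low stretch ventilation delivered 10 mL/kg per breath for 3 h at 135 breaths per minute and an end-expiratory pressure of 2 cmH2O, with room air alone (low stretch normocapnia, 5 arrays) or with an inspired CO2 fraction of 0.12 (low stretch hypercapnia, 5 arrays). High stretch ventilation delivered 35 to 40 mL/kg for 3 h at 30 to 35 breaths per minute, with pressures of 27 cmH2O at peak and 0 cmH2O at end expiration and an inspired oxygen fraction of 0.75. CO2 was left out in 10 animals (high stretch normocapnia) and given at a fraction of 0.12 in 10 others (high stretch hypercapnia). High and low stretch thus differed in end-expiratory pressure, breathing rate and oxygen as well as in tidal volume. The title of the series asks how hypercapnia, a raised CO2 level, affects lung injury from the ventilator.

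Array medians lay between 6.96 and 7.05 on the deposited log2 scale, and the median change of all genes stayed within 0.04 log2 units in all 10 comparisons. The lung label was borne out by its defining genes: Sftpc, the surfactant protein of type 2 cells, had group means from 14.01 to 14.04, and Ager, a type 1 cell gene, from 12.90 to 12.95. Ttpa had a mean of 6.64 over all arrays beside a median of 7.44 over all genes, which is given only as a guide to how dim its signal was. The table used here holds no detection call, so whether Ttpa stood above background was not tested. A log2 signal has no true zero and probe sets differ in response, so each gene's level is otherwise compared between groups alone. In whole lung, fewer cells of a type and less RNA per cell cannot be told apart.

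Promoter sequences were matched by symbol in a RefSeq promoter set for GRCm38.p6, which gave 2 of the 5 genes. They are Sec14l2, the tested gene that passed in the most comparisons, and Pltp, the gene that fell in every ventilated group, and the 250 bases before each start are shown so that both promoters can be read side by side, 5′ to 3′ on the strand of the gene. Both genes lie on the minus strand, Sec14l2 at chr11:4118730-4118979 and Pltp at chr2:164857709-164857958. Capitals mark letters that match a GC box (GGGCGG) or a CCAAT box (CCAAT), searched on both strands, with no overlap between the 2.
Sec14l2: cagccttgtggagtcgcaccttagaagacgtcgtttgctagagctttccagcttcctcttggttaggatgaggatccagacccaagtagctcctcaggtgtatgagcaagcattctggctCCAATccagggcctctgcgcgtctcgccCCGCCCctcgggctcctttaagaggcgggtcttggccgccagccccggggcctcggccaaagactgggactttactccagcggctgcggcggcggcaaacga
Pltp: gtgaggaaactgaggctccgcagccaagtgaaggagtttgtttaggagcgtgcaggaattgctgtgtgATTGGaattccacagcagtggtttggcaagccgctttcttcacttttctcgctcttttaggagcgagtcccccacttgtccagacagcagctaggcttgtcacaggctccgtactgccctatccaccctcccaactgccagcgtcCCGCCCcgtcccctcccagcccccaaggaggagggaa
Both windows held 1 GC box and 1 CCAAT box. The GC box lay 102 to 97 bases before the start in Sec14l2 and 37 to 32 bases before it in Pltp, both times on the opposite strand. The CCAAT box lay 130 to 126 bases before the start in Sec14l2, on the strand of the gene, and 182 to 178 bases before it in Pltp, on the opposite strand. Of 32851 promoter windows of this length, 32.7% held a GC box and 33.8% a CCAAT box. Neither window held the nuclear receptor core AGGTCA (in 14% of windows), the antioxidant response element TGACNNNGC (10.2%), the sterol regulatory element TCACNCCAC (1.05%), the cAMP response element core TGACG (17.8%), the hypoxia response element core ACGTG (16.6%) or the TATA box TATAAA (12.4%). Longer forms searched were the PPAR direct repeat (0.0335%), the LXR direct repeat (0.0152%) and the glucocorticoid response element (0.00913%), also with no match. A match or its absence describes these letters and nothing about a factor.

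The 5 genes followed different courses. Ttpa was higher with CO2 than without it at both stretch levels, and lower at high than at low stretch. Sec14l2, which binds tocopherol and other lipids, was like Ttpa highest in low stretch hypercapnia. Their signs differed for high stretch normocapnia against non-ventilated lungs (0.08 for Sec14l2, -0.15 for Ttpa) and for the interaction (-0.06 and 0.40). Ttpal rose with high stretch ventilation, Pltp fell in every ventilated group, and no change of Scarb1 passed. The counts below are of the 4 tested genes at an adjusted p under 0.05 (limma, Benjamini-Hochberg over all genes), each beside the share of all genes that passed.

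Against non-ventilated lungs, 1 gene rose and 1 fell in low stretch normocapnia, where 11.8% of all genes passed, 6.63% upward and 5.17% downward. Low stretch hypercapnia also gave 1 rise and 1 fall, with 15% of all genes passing, 7.99% upward and 7.02% downward. The comparison of high stretch normocapnia gave 1 rise and 1 fall beside 36.3% of all genes, 17.4% upward and 18.9% downward. High stretch hypercapnia gave 2 rises and 1 fall beside 33.8%, 16.3% upward and 17.6% downward. These 4 comparisons share the same 5 non-ventilated arrays.

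For CO2 itself, none of the 4 passed at low stretch, where 0.115% of all genes did (0.0401% upward, 0.0752% downward), and none passed at high stretch, where 5.56% did (2.49% upward, 3.07% downward). In both, 1 of the 4, Sec14l2, had an unadjusted p under 0.05 in limma. Of all 19938 genes, 1839 did at low and 3489 at high stretch. Averaged over both stretch levels 1 gene rose, beside 5.86% of all genes (2.59% upward, 3.27% downward). High against low stretch gave 1 fall in normocapnia, beside 18.3% of all genes (8.72% upward, 9.56% downward), and 1 fall in hypercapnia, beside 10.1% (5.43% upward, 4.69% downward). For the interaction of CO2 and stretch, limma passed 0 of the 4 genes and 0% of all genes, with 0 of the 4 and 893 of all genes at an unadjusted p under 0.05. No alternative fit of the interaction passed any gene either.

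Ttpa lies on chromosome 4 between Atp6v0d2 and Ggh in the gene order of the same RefSeq assembly, and 2 probe sets on the array carry its symbol alone. In the non-ventilated animals it measured 6.18, 6.19, 6.53, 6.34 and 6.25 log2 units. The 5 low stretch normocapnia arrays read 6.69, 7.07, 6.97, 7.17 and 6.61, and the 5 low stretch hypercapnia arrays 7.13, 7.08, 7.14, 7.46 and 7.34. All 10 low stretch arrays were thus above all 5 non-ventilated ones, and the normocapnic group was split between 3 arrays near the hypercapnic range and 2 lower ones.

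At high stretch, Ttpa ran from 5.61 through a median of 6.22 to 6.47 in normocapnia and from 6.39 through a median of 6.82 to 7.27 in hypercapnia. Of the 10 hypercapnic arrays, 9 exceeded every normocapnic one, and the lowest, at 6.39, lay inside the normocapnic range. Within hypercapnia the 10 arrays fell into 4 high ones, between 7.18 and 7.27, and 6 lower ones, between 6.39 and 6.87.

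**Figure D1:**
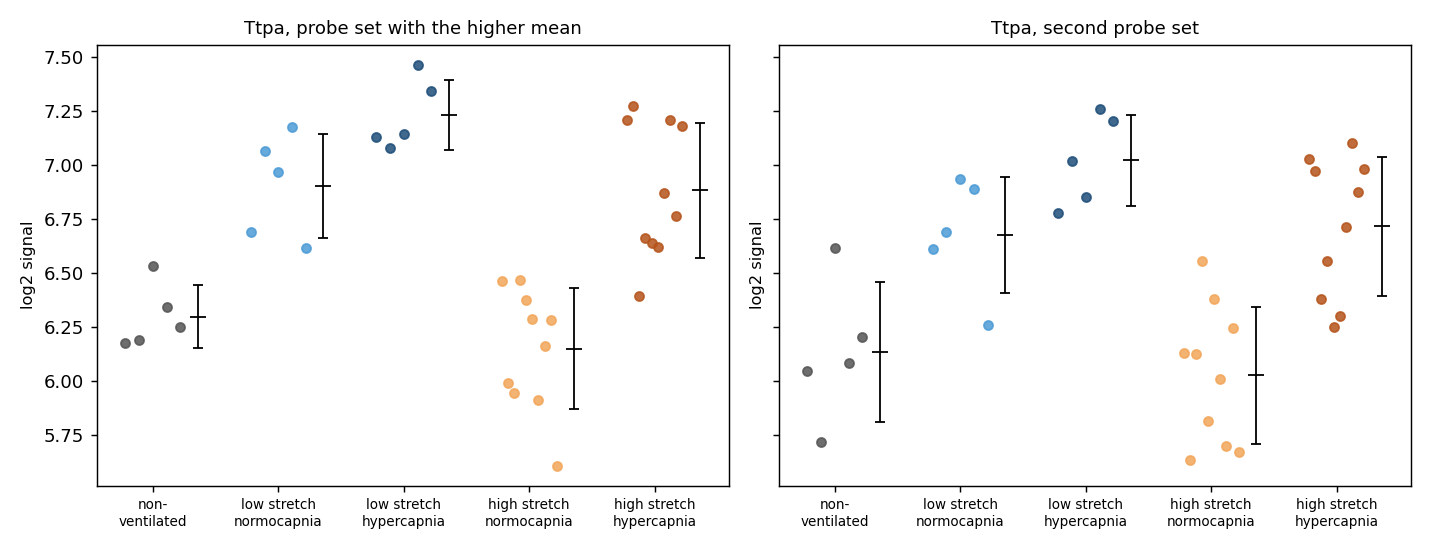
Log2 signal of Ttpa on each array in the 5 groups, for the probe set used and for the other one. Points are arrays, and bars are the group mean ± SD. In both panels low stretch hypercapnia has the highest mean (7.23 and 7.02) and high stretch normocapnia the lowest (6.15 and 6.03).

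Group means of Ttpa in rising order were 6.15 ± 0.28 (SD, n = 10) in high stretch normocapnia, 6.30 ± 0.15 (n = 5) in non-ventilated lungs, 6.88 ± 0.31 (n = 10) in high stretch hypercapnia, 6.90 ± 0.24 (n = 5) in low stretch normocapnia and 7.23 ± 0.16 (n = 5) in low stretch hypercapnia. Neighbours in this order did not differ beyond the larger of their SDs at 2 steps, the first (0.15) and the third (0.02). The pooled SD within groups was 0.26.

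With CO2, Ttpa was 1.66-fold higher at high stretch, a log2 difference of 0.73 ± 0.11 (SE; 95% interval 0.51 to 0.96). At low stretch it was 1.26-fold higher, by 0.33 ± 0.16 (0.01 to 0.64), and 2 of 5 hypercapnic arrays lay above all normocapnic ones. The difference between these differences was 0.40 ± 0.19 (0.02 to 0.79). Averaged over stretch, Ttpa was 1.44-fold higher with CO2. These intervals describe values that were themselves part of how the gene came to be studied.

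High stretch went with less Ttpa than low stretch at either CO2 level. In normocapnia all 10 high stretch arrays lay below all 5 low stretch ones, and the mean was 1.69-fold lower, a log2 difference of -0.75 ± 0.14 (-1.03 to -0.48). In hypercapnia 6 of 10 lay below, and the mean was 1.27-fold lower (-0.35 ± 0.14). Relative to non-ventilated lungs, Ttpa was 1.52-fold higher in low stretch normocapnia, 1.91-fold higher in low stretch hypercapnia and 1.5-fold higher in high stretch hypercapnia. In high stretch normocapnia the difference from non-ventilated lungs was -0.15 ± 0.14, with 5 of 10 arrays below all non-ventilated ones.

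The other Ttpa probe set reads the same RNA, so it checks the probes and not the animals. Its group means were 6.13 ± 0.32 in non-ventilated lungs, 6.68 ± 0.27 and 7.02 ± 0.21 at low stretch without and with CO2, and 6.03 ± 0.32 and 6.72 ± 0.32 at high stretch without and with CO2. It put the CO2 difference at 0.34 ± 0.18 at low stretch (95% interval -0.02 to 0.71) and 0.69 ± 0.13 at high stretch (0.43 to 0.95). The stretch difference was -0.65 ± 0.16 in normocapnia (-0.97 to -0.33) and -0.31 ± 0.16 in hypercapnia (-0.62 to 0.01), and the interaction was 0.34 ± 0.22 (-0.10 to 0.79). On this probe set the intervals for CO2 at low stretch, stretch in hypercapnia and the interaction thus included 0, which those of the other probe set did not. As Ttpa was chosen on these arrays, an interval that leaves out 0 is not a test of it. Separation of the arrays was less complete: 6 of 10 high stretch hypercapnia arrays were above all normocapnic ones, and 8 of 10 high stretch normocapnia arrays were below all low stretch ones. Across the 35 arrays, which include the group differences, the 2 probe sets had r = 0.92, and r = 0.75 after group means were removed.

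Liver is the tissue in which Ttpa is most studied, so hepatocyte markers are given beside it. Of 10 listed, 9 were measured. Alb, the albumin gene, had group means from 5.42 to 5.54, Ttr from 4.81 to 4.92 and Fgb from 5.11 to 5.30. The summed linear signal of the 9 ran from 530 to 687 in non-ventilated lungs, 703 to 1030 in low stretch normocapnia, 739 to 1000 in low stretch hypercapnia, 597 to 851 in high stretch normocapnia and 660 to 939 in high stretch hypercapnia. Beside 6.63% of all genes, 1 of the 9 rose in low stretch normocapnia against non-ventilated lungs. It was Tat, a tyrosine-degrading enzyme, with group means of 6.96, 8.73, 8.64, 7.79 and 8.39 in the order non-ventilated, low stretch without and with CO2, high stretch without and with CO2. A linear sum gives bright genes the most weight, so it follows Tat more than Alb, Ttr or Fgb. None of the 9 passed for CO2 at either stretch level by limma. At an unadjusted p under 0.05 were 0 at low and 3 at high stretch, beside 1839 and 3489 of all 19938 genes. For high against low stretch in normocapnia Tat fell by 0.94 (adjusted p = 0.00504) and Fga, a fibrinogen gene, rose by 0.29 (adjusted p = 0.0193). The part of these markers in the Ttpa values was not tested.

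Calls of lung cell type markers are given here beside the share of all genes. For CO2 at high stretch 2.49% of all genes rose and 3.07% fell, and at low stretch 0.115% passed. For high against low stretch in normocapnia 8.72% of all genes rose and 9.56% fell. In these comparisons, in that order, 3489, 1839 and 5688 of all 19938 genes had an unadjusted p under 0.05 in limma. For CO2 at high stretch, 3 of 11 type 2 cell markers fell (Slc34a2, Etv5 and Cebpa), 1 of 8 fibroblast and 1 of 10 monocyte and interstitial macrophage markers fell, and none of the type 1, club, endothelial, alveolar macrophage, neutrophil, B cell or T cell lists passed in limma, with 0 to 2 of each at an unadjusted p under 0.05. For CO2 at low stretch no marker of any list passed, again with 0 to 2 of each at an unadjusted p under 0.05. For high against low stretch in normocapnia, 6 of 7 B cell markers and 1 of 6 T cell markers (Cd2) rose. In the same comparison 4 of 12 endothelial markers, 2 of 6 club cell markers (Cldn10 and Aldh1a7), 1 of 8 type 1 cell markers (Rtkn2) and 1 of 8 fibroblast markers (Inmt) fell, and of the 11 type 2 cell markers Sftpd rose and Abca3 fell. None of the alveolar macrophage, monocyte or neutrophil lists passed there in limma, with 2, 0 and 0 at an unadjusted p under 0.05. Summed endothelial signal ran from 33400 to 36000 in non-ventilated lungs and from 22300 to 28900 over the 4 ventilated groups. Summed B cell signal ran from 1700 to 2730 without ventilation, 661 to 1030 and 577 to 863 at low stretch without and with CO2, and 932 to 1340 and 779 to 1180 at high stretch without and with CO2. The part of these cell types in the values of Ttpa was not tested.

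Sec14l2, also called tocopherol-associated protein or supernatant protein factor, lies on chromosome 11 between Mtfp1 and Rnf215. Non-ventilated lungs gave 7.79, 7.92, 8.13, 8.01 and 8.00. Low stretch normocapnia gave 8.34, 8.32, 8.28, 8.40 and 8.00, and low stretch hypercapnia 8.50, 8.53, 8.56, 8.40 and 8.47. The normocapnic array at 8.00, replicate 5, fell inside the non-ventilated range, and the same array had the lowest Ttpa of its group. High stretch ran from 7.88 through a median of 8.09 to 8.19 in normocapnia and from 7.94 through 8.23 to 8.40 in hypercapnia, with much overlap.

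With low stretch ventilation Sec14l2 rose by 0.30 ± 0.08 log2 units without CO2 (limma, adjusted p = 0.0113) and by 0.52 ± 0.08 with it (adjusted p = 1.79e-05, 1.43-fold, all 5 arrays above all non-ventilated ones). When only the compared groups entered the fit, the first of these had an adjusted p of 0.0661. At high stretch the gene rose with CO2 by 0.23 ± 0.07 against non-ventilated lungs (adjusted p = 0.00932, 7 of 10 arrays above), and with non-ventilated replicate 1 left out this call did not hold (adjusted p = 0.0536). Without CO2 the difference was 0.08 ± 0.07 (adjusted p = 0.449).

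Averaged over both stretch levels, Sec14l2 rose with CO2 by 0.19 ± 0.05 (limma, adjusted p = 0.0169, 1.14-fold). Without low stretch normocapnia replicate 5, the low array named above, the average was 0.15 with an adjusted p of 0.061. Within each stretch level the values were 0.22 ± 0.08 at low stretch (adjusted p = 0.331, 95% interval 0.05 to 0.38, 4 of 5 arrays above all normocapnic ones) and 0.16 ± 0.06 at high stretch (adjusted p = 0.113, interval 0.04 to 0.27, 6 of 10 above). At high stretch the call passed without hypercapnia replicate 10 (0.18, adjusted p = 0.0426) and with array weights (0.19, adjusted p = 0.0192).

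At high relative to low stretch Sec14l2 fell in hypercapnia, by 0.29 ± 0.07 log2 units (limma, adjusted p = 0.00605) with 9 of 10 high stretch arrays below all low stretch ones. In normocapnia it fell by 0.22 ± 0.07 (adjusted p = 0.0219, 4 of 10 below). That second call did not hold when replicate 1, 2, 3 or 4 of low stretch normocapnia was left out (adjusted p = 0.0612, 0.0583, 0.0535 and 0.0898). In rising order the group means were 7.97 ± 0.13 (non-ventilated), 8.05 ± 0.13 (high stretch normocapnia), 8.20 ± 0.14 (high stretch hypercapnia), 8.27 ± 0.16 (low stretch normocapnia) and 8.49 ± 0.06 (low stretch hypercapnia), and the first and the third step were within the larger SD.

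Ttpal, the transfer-protein-like relative of Ttpa, has the same kind of lipid pocket and lies on chromosome 2 between Hnf4a and Serinc3. It measured 7.96, 7.93, 8.24, 8.06 and 8.11 in non-ventilated lungs, 8.68, 8.50, 8.19, 8.34 and 8.30 in low stretch normocapnia and 8.42, 8.07, 8.42, 8.41 and 8.06 in low stretch hypercapnia. The hypercapnic group was divided, with 3 arrays near 8.4 and 2 inside the non-ventilated range. High stretch gave 8.19 to 8.82 (median 8.58) without CO2 and 8.35 to 9.01 (median 8.49) with it.

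Against non-ventilated lungs Ttpal rose at high stretch, by 0.50 ± 0.10 without CO2 (limma, adjusted p = 0.000227, 1.41-fold, 9 of 10 arrays above all non-ventilated ones) and by 0.52 ± 0.10 with it (adjusted p = 0.000172, 1.43-fold, 10 of 10). At low stretch the differences were 0.34 ± 0.12 without CO2 (adjusted p = 0.061) and 0.21 ± 0.12 with it (adjusted p = 0.285). Without low stretch normocapnia replicate 3 or non-ventilated replicate 3 the former passed (adjusted p = 0.0356 and 0.044). CO2 made a difference of 0.02 ± 0.09 at high stretch (adjusted p = 0.956, interval -0.16 to 0.19) and -0.13 ± 0.12 at low stretch (adjusted p = 0.833, interval -0.37 to 0.12). The sign at high stretch turned under array weights (-0.06) and without some single arrays.

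The stretch comparison put Ttpal on the other side from Ttpa and Sec14l2 in sign. It was 0.30 ± 0.10 higher at high than at low stretch in hypercapnia (limma, adjusted p = 0.0581, 7 of 10 arrays above all low stretch ones) and 0.16 ± 0.10 higher in normocapnia (adjusted p = 0.361). The former lay close to the threshold. It passed without low stretch hypercapnia replicate 1 or 4 (adjusted p = 0.0487 and 0.0494) and without high stretch hypercapnia replicate 1, 2, 3 or 5 (adjusted p = 0.0423, 0.0464, 0.0386 and 0.0445). A difference between genes in their response was not tested.

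Scarb1 encodes scavenger receptor class B type 1, the receptor through which type 2 cells take lipid and vitamin E from high-density lipoprotein. Its values were 9.81, 9.95, 10.06, 9.90 and 9.92 in non-ventilated lungs, 10.53, 10.46, 10.06, 10.11 and 10.09 in low stretch normocapnia and 10.56, 10.05, 9.94, 10.23 and 10.05 in low stretch hypercapnia. High stretch spanned 9.82 to 10.41 (median 10.04) without CO2 and 9.90 to 10.40 (median 10.09) with it. Every ventilated group overlapped the non-ventilated range.

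No comparison of Scarb1 passed in limma. The nearest was low stretch normocapnia against non-ventilated lungs, 0.32 ± 0.11 (adjusted p = 0.0653, 4 of 5 arrays above all non-ventilated ones), and it passed without low stretch normocapnia replicate 3 (adjusted p = 0.0418). The CO2 difference was -0.08 ± 0.11 at low stretch (interval -0.31 to 0.15) and 0.01 ± 0.08 at high stretch (interval -0.15 to 0.18). These intervals leave room for a CO2 difference of up to 0.18 log2 units upward at high stretch. The latter changed sign with centred arrays (-0.0033) and with array weights (-0.02).

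Pltp encodes phospholipid transfer protein, a secreted protein that moves phospholipid and tocopherol between lipoproteins and is made by type 2 cells. It lies on chromosome 2 between Ctsa and Pcif1. Non-ventilated lungs read 12.28, 12.32, 12.34, 12.41 and 12.42, low stretch normocapnia 12.16, 12.06, 12.15, 12.15 and 12.14, and low stretch hypercapnia 11.98, 12.13, 12.09, 12.15 and 12.23. At high stretch it ran from 11.80 through 12.03 to 12.12 without CO2 and from 11.95 through 12.05 to 12.17 with it. All 30 ventilated arrays lay below all 5 non-ventilated ones.

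The falls of Pltp against non-ventilated lungs were small and narrow. It fell by 0.22 ± 0.05 in low stretch normocapnia (limma, adjusted p = 0.00557), by 0.24 ± 0.05 in low stretch hypercapnia (adjusted p = 0.00221), by 0.34 ± 0.05 in high stretch normocapnia (adjusted p = 4.75e-07) and by 0.31 ± 0.05 in high stretch hypercapnia (adjusted p = 3.49e-06). As linear folds these were 1.17, 1.18, 1.27 and 1.24-fold lower. With only the compared groups in the fit, the fall in low stretch hypercapnia had an adjusted p of 0.054. Neighbouring ventilated groups did not differ beyond their spread.

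CO2 differences of Pltp were -0.02 ± 0.05 at low stretch (limma, adjusted p = 0.971, interval -0.13 to 0.09) and 0.04 ± 0.04 at high stretch (adjusted p = 0.749, interval -0.04 to 0.11). High against low stretch gave -0.12 ± 0.05 in normocapnia (adjusted p = 0.0722) and -0.07 ± 0.05 in hypercapnia (adjusted p = 0.395). Of 11 type 2 cell markers, all measured, 3 fell in low stretch normocapnia, beside 5.17% of all genes. In high stretch normocapnia 5 of these markers fell and 1 rose, beside 18.9% of all genes downward and 17.4% upward. Their summed signal ran from 65500 to 69200 in non-ventilated lungs, 60900 to 66400 and 61900 to 67000 at low stretch without and with CO2, and 62300 to 67400 and 59300 to 65400 at high stretch without and with CO2. The part of these markers in the Pltp fall was not tested.

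**Figure D2:**
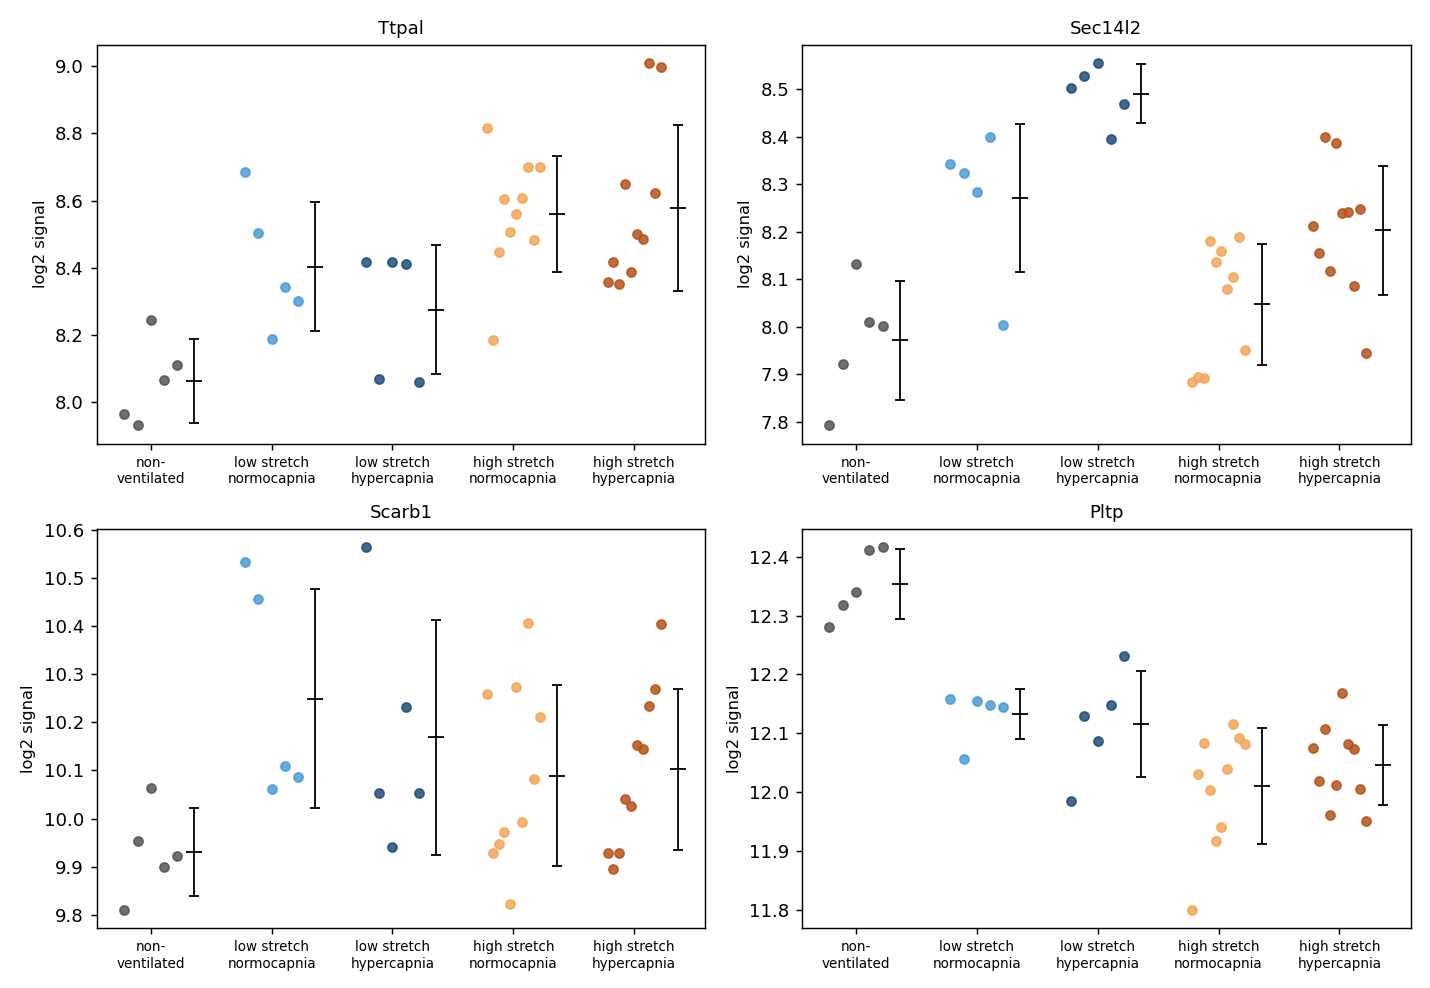
Log2 signal of Ttpal, Sec14l2, Scarb1 and Pltp on each array in the 5 groups. Points are arrays, and bars are the group mean ± SD. Pltp shows all ventilated arrays below the non-ventilated ones, and Sec14l2 is highest in low stretch hypercapnia (mean 8.49).

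**Figure D3:**
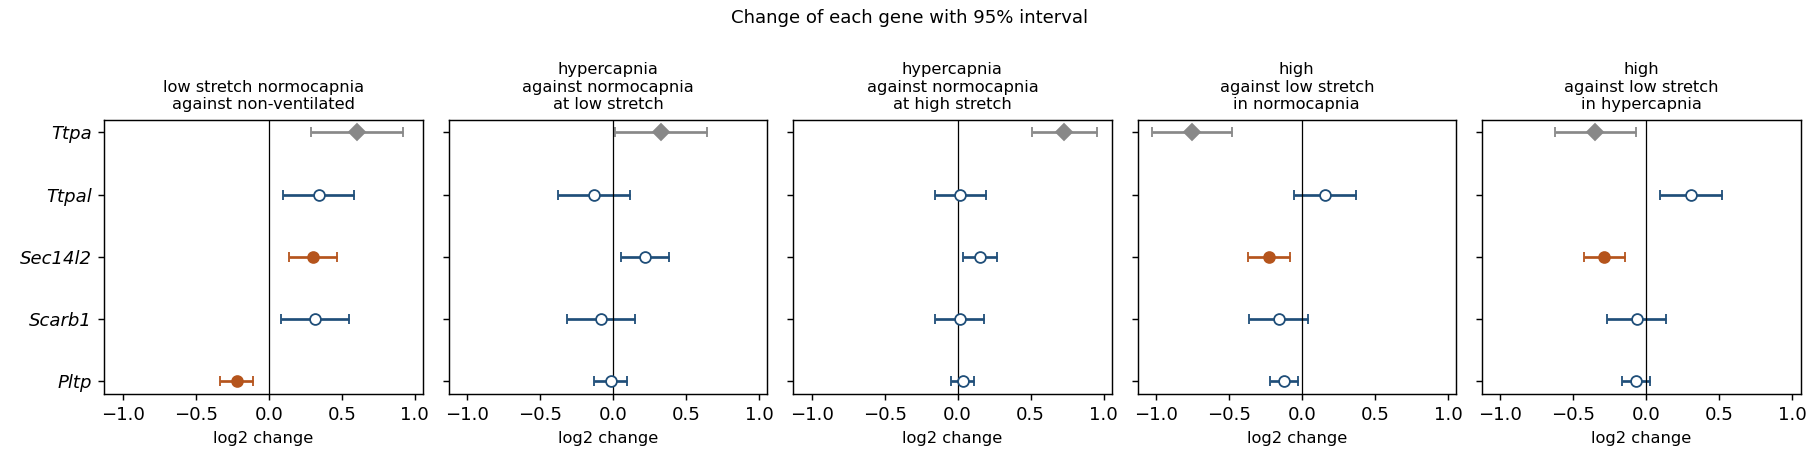
Log2 change of each gene in 5 comparisons, with 95% intervals. Filled circles passed at an adjusted p under 0.05, open circles did not, and grey diamonds (Ttpa) were not tested. Ttpa and Sec14l2 lie on the same side of 0 in all 5 panels, while Pltp lies below 0 for ventilation and close to 0 for CO2. High stretch normocapnia against non-ventilated lungs, where Ttpa and Sec14l2 differed in sign, is not shown.

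The rest of the CRAL-TRIO family places Sec14l2 and Ttpal among 17 other genes with this lipid-binding fold, all measured. Beside 2.49% of all genes upward and 3.07% downward for CO2 at high stretch, 2 of the 17 rose and none fell. They were Sec14l4, a near relative of Sec14l2 also described as a tocopherol-associated protein (0.30 ± 0.06, limma, adjusted p = 0.000876, 1.23-fold), and Nf1, neurofibromin, a Ras regulator (0.24 ± 0.04, adjusted p = 0.000681). The median of the 17 changes was 0.03, beside -0.01 for all genes. At low stretch, where 0.115% of all genes passed, none of the 17 did, with Sec14l4 at 0.24 ± 0.08 (limma, adjusted p = 0.256). An unadjusted p under 0.05 was found for 3 of the 17, beside 1839 of all 19938 genes. How far probe sets of these related genes also bind one another's transcripts was not tested.

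Sec14l4 was chosen for array values after its result was seen. It measured 9.49, 9.51, 9.86, 9.80 and 9.53 in non-ventilated lungs, 10.02, 9.97, 10.01, 9.94 and 9.65 in low stretch normocapnia and 10.12, 10.11, 10.12, 10.28 and 10.18 in low stretch hypercapnia. All 5 hypercapnic low stretch arrays lay above all normocapnic ones, and replicate 5 of the normocapnic group was again the lowest. At high stretch it ran from 9.63 through 9.78 to 9.99 without CO2 and from 9.90 through 10.04 to 10.28 with it, and 8 of 10 hypercapnic arrays lay above all normocapnic ones.

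**Figure D4:**
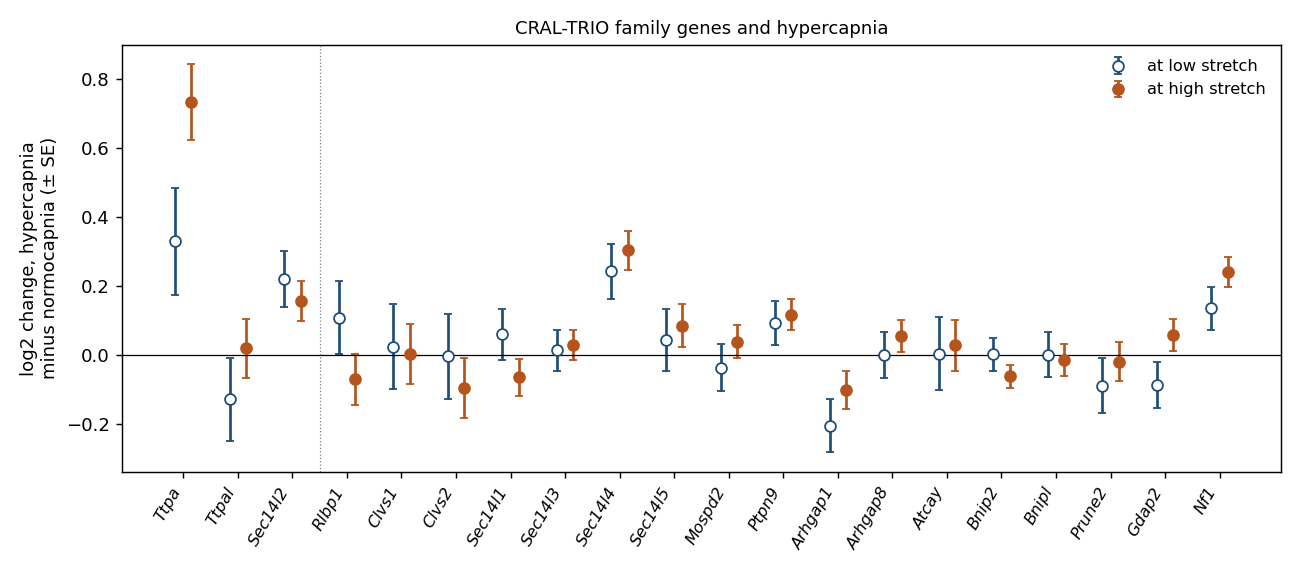
Log2 difference, hypercapnia minus normocapnia (± SE), for Ttpa, Ttpal and Sec14l2 (left of the dotted line) and the 17 other CRAL-TRIO genes, at low stretch (open) and at high stretch (filled). Ttpa stands at 0.33 and 0.73, Sec14l4 at 0.24 and 0.30, and most others lie near 0.

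Against non-ventilated lungs genes of the family moved in both directions, as genes did over the whole array. Of all genes, 11.8% passed in low stretch normocapnia and 33.8% in high stretch hypercapnia. For high against low stretch 18.3% passed in normocapnia and 10.1% in hypercapnia. In low stretch normocapnia 2 of 17 rose, Gdap2 (0.31 ± 0.07, limma, adjusted p = 0.00174) and Sec14l4 (0.28 ± 0.08, adjusted p = 0.0161), and the second was lost without non-ventilated replicate 1 or 2 or low stretch normocapnia replicate 1 (adjusted p = 0.061, 0.0578 and 0.0533), which leaves 1. In high stretch hypercapnia 3 rose and 3 fell, among them Gdap2 (0.45), Sec14l4 (0.43), Nf1 (0.33) and Sec14l5 (-0.31). For high against low stretch none passed in normocapnia, with 2 at an unadjusted p under 0.05 (limma), beside 5688 of all 19938 genes. In hypercapnia 1 rose, Gdap2 (0.23 ± 0.06, adjusted p = 0.0077), which was lost without low stretch hypercapnia replicate 2 (adjusted p = 0.0581). No fall among the 17 passed in either stretch comparison, beside 9.56% of all genes downward in normocapnia and 4.69% in hypercapnia.

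Genes of lipoprotein uptake, exchange and export of vitamin E form the next step outward, with 21 of 23 measured. In low stretch normocapnia 3 rose: Abca1, which exports cholesterol and tocopherol (0.50 ± 0.11, limma, adjusted p = 0.00176), Lrp8, a receptor for apolipoprotein E (0.37 ± 0.09, adjusted p = 0.00496), and Lipg, endothelial lipase (0.36 ± 0.10, adjusted p = 0.0106). Of all genes 6.63% rose in that comparison. Without non-ventilated replicate 1 the Lipg call was lost (adjusted p = 0.0561). For CO2 at high stretch 1 rose, the lipoprotein receptor Vldlr (0.30 ± 0.08, adjusted p = 0.0155), and 1 fell, Lrp8 (-0.28 ± 0.06, adjusted p = 0.0053). Of all genes, 2.49% rose and 3.07% fell for CO2 at high stretch. At low stretch, where 0.115% of all genes passed, none of the 21 did. In limma 1 had an unadjusted p under 0.05, beside 1839 of all 19938 genes.

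High against low stretch in normocapnia, where 18.3% of all genes passed, gave 2 rises and 5 falls among the 21. The 4 largest were Lrp8 (0.52 ± 0.08, limma, adjusted p = 8.24e-06), Vldlr (-0.49 ± 0.09, adjusted p = 0.000238), Lcat, which esterifies cholesterol in high-density lipoprotein (0.43 ± 0.08, adjusted p = 0.000124), and Abca1 (-0.41 ± 0.10, adjusted p = 0.00205). The other 3 falls, Gpihbp1 (-0.26), Npc1 (-0.20) and Lrp1 (-0.19), were all lost without low stretch normocapnia replicate 4, which leaves 2 falls, and 2 of them each without replicate 2 or 3, which leaves 3. Group means of Vldlr, in the order non-ventilated, low stretch without and with CO2, high stretch without and with CO2, were 9.73, 9.91, 9.90, 9.42 and 9.72. Those of Lrp8 in the same order were 6.55, 6.93, 6.82, 7.45 and 7.17. The high stretch hypercapnia mean thus lay between the high stretch normocapnia and the low stretch means in both genes.

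Vitamin E breakdown was covered by 9 of 10 listed genes, mostly cytochrome P450 4F hydroxylases. None of the 9 passed for CO2 at high stretch, beside 5.56% of all genes. In limma 2 had an unadjusted p under 0.05, beside 3489 of all 19938 genes. For high against low stretch in normocapnia 3 of the 9 fell and none rose: Cyp4f15 (-0.52 ± 0.10, adjusted p = 0.000225), Nr1i2, the xenobiotic receptor PXR (-0.28 ± 0.08, adjusted p = 0.00965), and Cyp4f13 (-0.27 ± 0.06, adjusted p = 0.00138). In hypercapnia 1 fell, Cyp4f15 (-0.58 ± 0.10, adjusted p = 0.000105). These falls stood beside 9.56% of all genes downward in normocapnia and 4.69% in hypercapnia. Which of these hydroxylases acts on vitamin E in mouse lung is not shown by these data.

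The only rise of this list in low stretch normocapnia was Cyp4f18 (0.78 ± 0.18, limma, adjusted p = 0.00248), known as a leukotriene B4 hydroxylase of neutrophils. Of 12 neutrophil markers, all measured, 10 rose in that comparison, beside 6.63% of all genes. The summed signal of these markers ran from 4100 to 10200 in non-ventilated lungs and from 13300 to 35500 over the 4 ventilated groups. None of the 12 passed for CO2 at either level or for stretch in normocapnia (limma, 0 at an unadjusted p under 0.05 in each). Of all 19938 genes, 1839 (CO2, low stretch), 3489 (CO2, high stretch) and 5688 (stretch) had an unadjusted p under 0.05. The part of neutrophil RNA in the Cyp4f18 value was not tested. For Ttpa, the high stretch normocapnia arrays had a neutrophil sum of 14400 to 28300 and the high stretch hypercapnia arrays 13700 to 33400.

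Defence against lipid peroxides, the process in which vitamin E acts, was covered by 19 of 20 listed genes. In low stretch normocapnia 7 rose and 2 fell, beside 11.8% of all genes, led by Slc7a11, the cystine importer (3.23 ± 0.31, limma, adjusted p = 4.49e-09, 9.38-fold), Gclc and Gclm, the subunits of the enzyme that starts glutathione synthesis (1.06 and 0.96), and Txnrd1, thioredoxin reductase (0.96). The falls were Slc23a2, a vitamin C transporter (-0.34, adjusted p = 0.0104), and Cat, catalase (-0.26, adjusted p = 0.0209). Neither held with low stretch normocapnia replicate 5 left out (adjusted p = 0.0538 and 0.0887), and Cat did not hold with replicate 1 or 2 of either group left out (0.0526 to 0.0599). In normocapnia high stretch gave 5 rises and 2 falls against low stretch, beside 18.3% of all genes, led by Slc7a11 (1.35 ± 0.27, adjusted p = 0.000374), Gclc (0.73) and Txnrd1 (0.65). For CO2 at high stretch, where 5.56% of all genes passed, 1 gene fell, Gclm (-0.38 ± 0.08, adjusted p = 0.0046), and none rose. Slc7a11 was thus highest in high stretch normocapnia (11.20 ± 0.26), the group in which Ttpa was lowest. In low stretch normocapnia, however, both genes were higher than in non-ventilated lungs, Slc7a11 by 3.23 and Ttpa by 0.60. A relation between Slc7a11 and Ttpa was not tested.

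Nuclear receptors and targets of the liver X receptor, which control lipid export, were covered by 14 of 15 genes. For CO2 at high stretch 2 rose and 1 fell: Ppargc1a, a coactivator of oxidative metabolism (0.38 ± 0.10, limma, adjusted p = 0.0187), Ppara, a fatty acid receptor (0.32 ± 0.05, adjusted p = 7.33e-05), and Mylip, which degrades lipoprotein receptors (-0.24 ± 0.07, adjusted p = 0.0379). The Mylip call was lost in 11 of the fits that left out 1 array, 5 of high stretch normocapnia (replicates 3, 4, 8, 9 and 10) and 6 of high stretch hypercapnia (replicates 1, 2, 4, 6, 9 and 10), with adjusted p between 0.0537 and 0.078. The counts for CO2 at high stretch stood beside 2.49% of all genes upward and 3.07% downward. At low stretch, where 0.115% of all genes passed, none of the 14 did, with Ppara at 0.19 (limma, adjusted p = 0.289). There 4 had an unadjusted p under 0.05, beside 1839 of all 19938 genes. The lipoxygenase list, with 7 of 7 measured, gave no call for CO2 at either level. At an unadjusted p under 0.05 in limma it had 0 at low and 2 at high stretch, the latter beside 3489 of all 19938 genes.

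Ppara, like Sec14l4, was chosen for array values after its result was seen. Its high stretch values ran from 6.21 through 6.32 to 6.53 without CO2 and from 6.53 through 6.67 to 6.86 with it, and 9 of 10 hypercapnic arrays lay above all normocapnic ones. At low stretch it measured 6.43, 6.51, 6.50, 6.60 and 6.42 without CO2 and 6.53, 6.67, 6.75, 6.75 and 6.69 with it, with 4 of 5 above. Averaged over both levels the difference was 0.25 ± 0.04 (limma, adjusted p = 0.000142, 1.19-fold). Its non-ventilated mean, 6.49 ± 0.14, was the same as that in low stretch normocapnia, 6.49 ± 0.07, where Ttpa stood 0.60 higher than without ventilation.

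**Figure D5:**
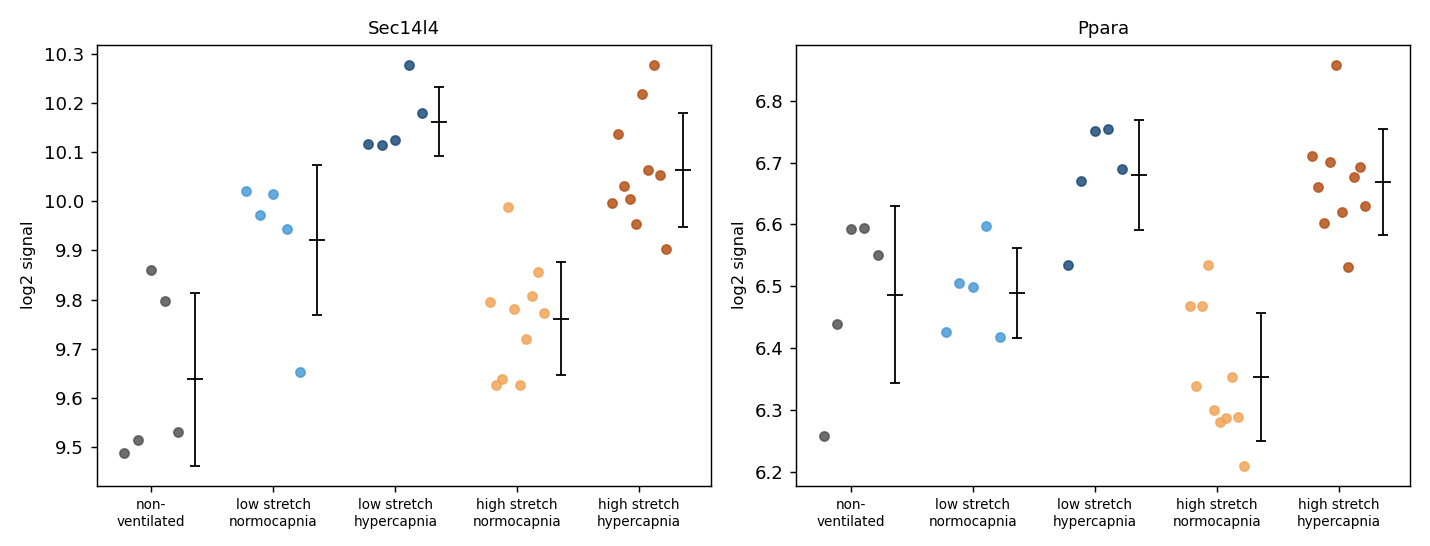
Log2 signal of Sec14l4 and Ppara on each array in the 5 groups, with the group mean ± SD. Hypercapnic groups stand above their normocapnic counterparts in both genes, with high stretch means of 9.76 and 10.06 for Sec14l4 and 6.35 and 6.67 for Ppara.

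Genes whose signal was most like that of Ttpa were ranked by Pearson r over the 35 arrays, as a description: the points share the 5 group differences, and no test was made. The first 5 were Ubxn7 (r = 0.83), Gpr157 (0.80), Igf1r (0.79), Tmem241 (0.77) and Sec14l4 (0.77). Ubxn7, a ubiquitin-binding adaptor, had group means of 9.93, 10.22, 10.41, 9.96 and 10.18 in the order non-ventilated, low stretch without and with CO2, high stretch without and with CO2. Gpr157, a G protein-coupled receptor, had 7.22, 7.77, 8.05, 7.46 and 7.84, and Igf1r, the receptor of insulin-like growth factor, had 9.66, 9.80, 9.92, 9.59 and 9.84. After group means were removed, r with Ttpa was 0.39 for Ubxn7, 0.43 for Gpr157, 0.35 for Igf1r, 0.22 for Tmem241 and 0.40 for Sec14l4.

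Ranked by deviations from the group mean, a different set of 5 led: Acpp (r = 0.67), Rnf169 (0.63), Dhx40 (0.62), Tinf2 (0.62) and Ppargc1a (0.61). Rnf169, a ubiquitin ligase of the DNA damage response, also had r = 0.75 over all arrays, while Tinf2, a telomere protein, had 0.25. These were the highest of 19938 genes over 35 arrays and are given as a ranking alone.

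Among themselves the 5 genes gave 10 pairs. The 6 without Ttpa were tested on deviations from the group mean by 100000 permutations within groups, with p-values adjusted over all 10. A single pair passed, Ttpal and Scarb1, with r = 0.69 (permutation p = 1e-05, the smallest these permutations can give, adjusted 0.0001) and a Spearman correlation of 0.68 (permutation p = 7e-05, adjusted 0.0007). Without the 2 arrays farthest from the median of Ttpal, r was 0.67. In the 20 high stretch arrays alone r was 0.72 (permutation p = 0.00022, adjusted 0.0022), and in the other 15 arrays it was 0.68 (permutation p = 0.0192, adjusted 0.192). Arrays of 1 group that were high in Ttpal thus tended to be high in Scarb1.

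The pairs with Ttpa are given as a description, with no test. Within groups Ttpa had r = 0.26 with Ttpal, 0.01 with Sec14l2, 0.06 with Scarb1 and -0.29 with Pltp over the 35 arrays. Spearman correlations for these pairs were 0.21, 0.04, 0.05 and -0.22.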

How the data were processed

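Labelled lung RNA of 35 mice was hybridised to 1 Affymetrix array per animal, per the labels' protocols. The authors deposited log2 signals, and the submitters' processing notes name RMA, Affymetrix Expression Console and Partek, with the role and version of each, and the genome build, not given in the sources used here. Of 35557 probe sets, 21789 carried 1 gene symbol, 1621 several and 12147 were not in the gene table used. The one with the highest mean was kept for each of 19938 genes, with no filter on level. One model of the 5 group means covered all 35 arrays (limma 3.58.1, R 4.3.3, functions lmFit and eBayes, two-sided, Benjamini-Hochberg within each of 10 contrasts, threshold 0.05), a procedure tested on simulated data. Errors are limma standard errors for differences and SD for means. The labels call the animals biological replicates and name no batch, so none was fitted. The number of arrays limits the precision.

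The 5 genes and all lists were chosen with earlier results of these data known. From each list the counts and up to 4 of the largest changes that passed are named. Genes most like Ttpa leave out predicted genes, clones, small RNAs, odorant or vomeronasal receptors and segments of antigen receptors. Alternatives were only the compared groups in the fit, array weights, a block for the replicate number, the trend and robust options of eBayes, every probe set tested, the mean of a gene's probe sets, genes above the median level, centred arrays, a second quantile normalization, a covariate for array spread, and leaving out 1 array.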

Additional observations from a re-analysis of the deposited data

Results flagged for a closer look

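Of 30 groups of 5 or 10 arrays that were checked, over the 5 genes and the other Ttpa probe set, 1 held an array far from the rest; chance gives about 1 in 20. It was low stretch normocapnia replicate 2, where Pltp measured 12.06 against 12.14 to 12.16 in the other 4 arrays of the group, a gap of 0.863 of the whole range (critical value 0.71). The array still lay below all 5 non-ventilated ones.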

How the results depend on the processing

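The 5 genes gave 850 values in fits without 1 array. Of these, 817 were the same, 6 lost a call, 10 gained one and 17 changed sign. Under the other alternatives, 490 values gave 469, 3, 14 and 4. For the 4 tested genes, the same meant an unchanged direction and side of the threshold. For Ttpa it meant a value within the pooled SD of 0.26 from the main one. A sign change of Ttpa was counted only where the main difference exceeded that SD. Every change of sign was in a value that had not passed. Without 1 array such values ranged, for CO2 at high stretch, from -0.030 to 0.046 (Ttpal) and -0.020 to 0.048 (Scarb1), for CO2 at low stretch from -0.046 to 0.016 (Pltp), for average CO2 from -0.0053 to 0.025 (Pltp) and -0.083 to 0.0018 (Scarb1), for the interaction from -0.096 to 0.0034 (Sec14l2), and for stretch in hypercapnia from -0.12 to 0.032 (Scarb1). Only the compared groups in the fit left 1 of the 4 genes past the threshold for each low stretch group against non-ventilated lungs, and all-gene counts fell from 2353 to 1385 and from 2993 to 1429. Array weights gave 1 for CO2 at high stretch and 2 for stretch in normocapnia, with Ttpal and Scarb1 at -0.060 and -0.017 for CO2 at high stretch, and 2052 genes in all against 1109. The trend and robust options gave 2 for stretch in normocapnia and 2 in hypercapnia, genes above the median level gave 4 for low stretch normocapnia, 2 and 2 for stretch, centred arrays gave 2 for stretch in hypercapnia with Scarb1 at -0.0033 for CO2 at high stretch and Pltp at -0.0027 for average CO2, and a second quantile normalization gave 2 for stretch in normocapnia. Without 1 array the count of the 4 genes past the threshold ranged from 2 to 4 for low stretch normocapnia, 2 to 3 for high stretch hypercapnia, 0 to 1 for CO2 at high stretch, for average CO2 and for stretch in normocapnia, and 1 to 2 for stretch in hypercapnia. In the 15 arrays outside high stretch 0 of the 6 gene pairs without Ttpa passed against 1. For CO2 at low stretch the 23 genes ranged from 0 to 100. The cause of these shifts was not tested; genes above the median level are fewer genes tested, and Ttpa is not among them.

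The replicate number as a block gave 4 of the 4 genes for low stretch normocapnia (Ttpal and Scarb1 with adjusted p of 0.0273 and 0.0259 in limma) and, for stretch in normocapnia, put Sec14l2 at an adjusted p of 0.0557 and Scarb1 at 0.0339. Same-numbered arrays had deviations correlated from -0.337 to 0.380 over 55 pairs, and 7 correlated best with their own number. Each had 5 or 10 candidates in the other group, so matches of this kind also arise at random. The median r of same-numbered arrays was 0.145 between non-ventilated and low stretch normocapnia arrays. It was 0.154 between low and high stretch normocapnia arrays. For differently numbered arrays it was -0.027 and -0.051. In the other pairs of groups the same-number median ran from -0.068 to 0.037. Whether same-numbered arrays shared more than a number was not tested. With the block 1269 genes passed for stretch in hypercapnia against 2017.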
